A study of Mus musculus with 28 samples.

Results

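Regions of open chromatin that mouse fibroblasts showed after 8 days of MyoD induction without small molecules are described here. These regions were absent from 20 other libraries of the muscle progenitor series, named below. Libraries of MyoD induction alone at day 4 and of MEF10 cells were not among the 20. They are called MyoD-alone regions. Overlapping peaks of 27 ATAC-seq lists (1 bp sufficed) were joined into regions, and a region counts as called in each library with a peak inside it. A MyoD-alone region was called in both MEF14_Dox+_Day8 libraries and in none of 20 excluded libraries. These were the libraries of day 0 fibroblasts, FRG alone at day 8, quiescent and activated satellite cells, and every MEF14 Dox+FRG group from day 2 to day 10. The rule kept 11556 of 255567 regions, which is 4.52%.

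MyoD is a basic helix-loop-helix transcription factor that binds E-box sequences, can act in closed chromatin and can turn fibroblasts into skeletal muscle cells. ATAC-seq reads such changes as new sites that a transposase can cut. Forskolin raises cyclic AMP by activating adenylyl cyclase, RepSox inhibits the TGF-beta type 1 receptor, and CHIR99021 inhibits GSK3β and thereby stabilises β-catenin. Cells given MyoD alone are known to move towards myotubes, whereas cells given MyoD with these molecules can become progenitor cells that resemble satellite cells, the Pax7-positive stem cells of muscle.

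The study held 28 libraries in 14 groups of 2. Fibroblasts came from embryos at day 13.5 of gestation. They carried rtTA at Rosa (Rosa-rtTA), MyoD under a tetO promoter at Col1a1 (Col1a1-tetO-MyoD), so that doxycycline induces it, and the reporter Pax7-nGFP. The MEF14 groups were untreated fibroblasts at day 0, cells with doxycycline alone at days 4 and 8 (Dox+), cells with the small molecules alone at day 8 (FRG), and cells with both (Dox+FRG) at days 2, 4, 6 and 8, with GFP-labelled groups at days 8 and 10. FRG was read as the initials of forskolin, RepSox and the GSK3β inhibitor, which the protocol gives at 5 μM, 5 μM and 3 μM. Doxycycline was given at 2 μg/ml, and the media of both the MyoD-alone and the combined condition held 10 ng/ml basic FGF. At day 6 there were also 2 MEF10 groups, MyoD+FRG and MN+FRG. The labels do not define MN or MEF10, and do not say whether MEF10 cells carry the same alleles. Quiescent and activated satellite cells were primary cells of adult Pax7-nGFP mice aged 10 to 12 weeks. Whether the replicates of a group are separate cultures or animals is not stated, so a p-value here reflects library-to-library spread that may be technical. No group was kept for 8 days in this medium with neither doxycycline nor FRG. MyoD, doxycycline itself and time in culture therefore cannot be told apart in the comparison with day 0.

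The lists give the position of each peak and no height or read count, so sequencing depth is unknown and a call is present or absent. Both Dox+ day 8 lists were long, at 108663 and 130916 peaks, and most of their peaks shared a width of 82 and 88 bp. The FRG day 8 lists were longer still, at 133267 and 134997 peaks, with most common widths of 61 and 63 bp. The other 18 excluded lists held 37910 to 70877 peaks, with most common widths of 153 to 205 bp. Absence from those 18 lists is thus absence from shorter lists with another peak width, and the part of list length in the choice of regions was not tested. Positions are in mm9, and regions are named by position because neither sequence nor gene annotation of that build was used here.

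The values that chose the regions are given as a description only. Both Dox+ day 8 libraries called 98339 regions, 38.5% of all. Of these, 53506 were also called in a day 0 fibroblast library and 44833 were not. A further 13301 were called in an FRG day 8 library, and 11257 of the rest in a satellite cell library. This left 20275 regions seen in both Dox+ day 8 libraries and in no fibroblast, FRG or satellite cell library. At least 1 Dox+FRG library called 8719 of these, and the 11556 MyoD-alone regions, 57.0% of the 20275, remained. Without Dox+ day 8 replicate 1, so that replicate 2 alone stood for the group, the rule would keep 24164 regions. Restricted to Dox+ day 8 peaks that exceed their list's most common width, it would keep 348.

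Among those 20275 regions, the Dox+FRG libraries differed in how many they called. The day 2 libraries called 3.57% and 1.36%, and the day 4 libraries 20.9% and 11.7%. At day 6 both libraries called close to the same share, 25.9% and 25.8%. At day 8 the libraries were far apart, at 27.8% and 15.0%. The GFP-labelled libraries called 8.21% and 7.09% at day 8, and 12.4% and 13.8% at day 10. Each GFP-labelled library at day 8 thus lay below each day 8 library without that label. The GFP-labelled lists at day 8 were also shorter, at 47002 and 43467 peaks against 67026 and 50608. Shares over all regions are not given for these libraries, so a difference particular to these regions cannot be told from list length. These shares were used by the rule and list lengths differed between the libraries.

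**Figure D1:**
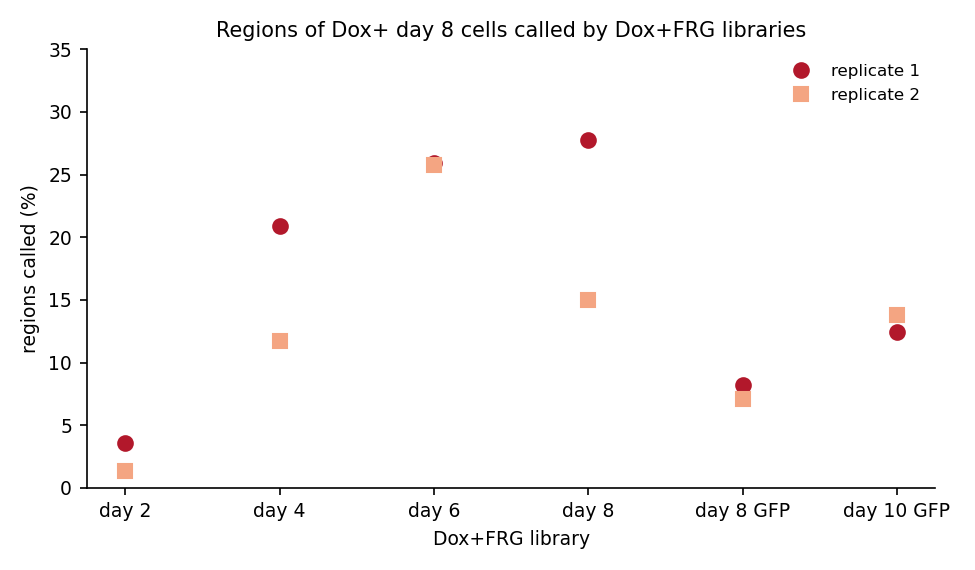
Share of the 20275 regions called in both Dox+ day 8 libraries, and in no day 0, FRG or satellite cell library, that each Dox+FRG library called, in percent. Points are single libraries, and the values run from 1.36% at day 2 to 27.8% at day 8.

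Just outside the rule stood 3914 regions that both Dox+ day 8 libraries and exactly 1 excluded library called. That library was most often Dox+FRG day 8 replicate 1, with 468 regions, activated satellite cell replicate 2, with 449, or FRG day 8 replicate 1, with 441. It was least often GFP-labelled day 8 replicate 2, with 7 regions, followed by Dox+FRG day 2 replicate 2 and quiescent satellite cell replicate 2, with 10 each, and GFP-labelled day 8 replicate 1, with 12. In that order these were short lists, of 43467, 46017, 37910 and 47002 peaks. FRG day 8 replicate 1 was the longest list, at 134997 peaks. The order of the libraries therefore cannot be told apart from list length. A further 16566 regions had no excluded library but only 1 Dox+ day 8 library, which was replicate 2, the longer list, for 12399 and replicate 1 for 4167.

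Calls in 5 further libraries of the merged lists played no part in the choice of regions: Dox+ day 4, MEF10 MyoD+FRG replicate 1 and MEF10 MN+FRG. The first question they bear on is whether the MyoD-alone regions were already called at day 4. Dox+ day 4 replicate 1 called 37.7% of the 11556 regions and replicate 2 called 42.6%. Over all 255567 regions these libraries called 34.5% and 37.6%, so the MyoD-alone regions were called little more often than regions in general. Of the regions called in both Dox+ day 8 libraries, whatever the other libraries showed, 77.4% ± 2.32 (SD, n = 2) were called at day 4. The mean for the MyoD-alone regions was 40.1% ± 3.46 (SD, n = 2). Both means come from the same 2 libraries, each of which called a smaller share of the MyoD-alone regions. The MyoD-alone regions are a part of the 98339 Dox+ day 8 regions, of which 53506 were called at day 0 and removed by the rule.

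Both Dox+ day 4 libraries called 3669 MyoD-alone regions, 31.7% of them, against 30.7% of all regions. Exactly 1 called a further 1932, and 5955 regions, 51.5%, were called in neither, against 58.5% of all regions. Both shares were near those over all regions. Of the 5955 without a Dox+ day 4 call, an MN+FRG library called 322, and MEF10 MyoD+FRG replicate 2 overlapped 5.00%. The same exclusions applied to day 4 gave 6244 regions that both Dox+ day 4 libraries and no excluded library called. Of these, 58.8% were called in both Dox+ day 8 libraries, 24.6% in 1 and 16.7% in neither.

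Other sets of regions from long lists set these shares in context. FRG-only regions were chosen in a matching way, as called in both FRG day 8 libraries and in no day 0, Dox+ day 8, satellite cell or Dox+FRG library, and numbered 29660. The Dox+ day 4 libraries called 0.792% and 0.904% of them. Their rule excludes Dox+ day 8 calls, so a second pair of sets was formed in which Dox+ and FRG day 8 lists did not exclude each other. There the Dox+ day 4 libraries called 36.5% and 41.4% of 14741 Dox+ day 8 regions, and 3.89% and 4.68% of 34853 FRG day 8 regions. In both versions each Dox+ day 4 library called a far larger share of the Dox+ day 8 regions than of the FRG regions. Of the 16566 regions with a peak in only 1 Dox+ day 8 library, the day 4 libraries called 14.8% and 19.6%, less than of the MyoD-alone regions in each library.

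Regions called with and without the small molecules were found far more often at day 4. These shared MyoD regions, 2738 in number, were called in both Dox+ day 8 and both Dox+FRG day 8 libraries and in no day 0, FRG or satellite cell library. Dox+ day 4 replicate 1 called 91.5% of them and replicate 2 called 94.1%. The MyoD-alone share was 0.411 and 0.452 of the shared one in the same libraries. Both sets are chosen from the same Dox+ day 8 lists, and shared regions had to be found in 2 more libraries.

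Regions with a peak in even 1 Dox+FRG library were called more often at Dox+ day 4 than MyoD-alone regions. Of the 20275 regions above, the 2016 called in exactly 1 of the 12 Dox+FRG libraries were called at 74.2% and 80.1% in the Dox+ day 4 libraries. With 3 Dox+FRG libraries the shares were 86.4% and 90.1% of 1092 regions. With all 12 they were 97.2% in both, over only 71 regions. In percentage points, the step from 0 to 1 Dox+FRG library was larger than any later step in both Dox+ day 4 libraries. At the same step the MEF10 MN+FRG libraries went from 5.94% and 6.33% to 12.5% and 12.4%. MEF10 MyoD+FRG replicate 1 went from 0.614% to 2.78%, and replicate 2 from 11.0% to 33.8%. All 6 libraries thus called a larger share of regions with 1 Dox+FRG library than of MyoD-alone regions. A rise from 0 to 1 library was also seen when all 20 excluded libraries were counted. Of the 3914 regions that exactly 1 of them called, which include these 2016, Dox+ day 4 libraries called 60.1% and 66.1%. The MN+FRG libraries called 16.2% and 16.1% of the 3914. With 2 excluded libraries the Dox+ day 4 shares were lower, at 51.5% and 56.8% of 5828 regions, while those of MN+FRG were higher, at 32.2% and 31.9%. With 3 the Dox+ day 4 shares were 61.8% and 68.1%. Whether the rise is particular to Dox+FRG calls was not tested.

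**Figure D2:**
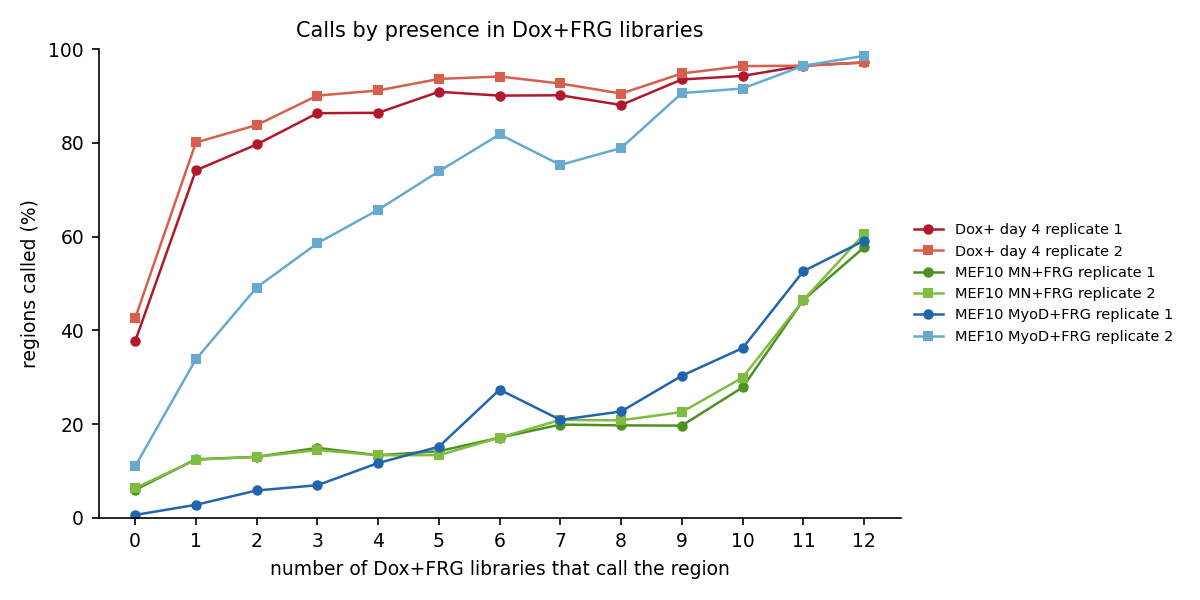
Share of regions called, in percent, in 6 libraries that the rule did not use, against the number of Dox+FRG libraries that call the region, for the 20275 regions of Dox+ day 8 cells seen in no day 0, FRG or satellite cell library. Lines are single libraries, 0 on the horizontal axis marks the 11556 MyoD-alone regions, and 12 rests on 71 regions.

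The second question is whether MyoD-alone regions appeared in other fibroblasts that were given FRG. MEF10 MyoD+FRG replicate 1 called 0.614% of them, against 14.4% of all regions and 26.8% of the shared MyoD regions. Its list was the shortest of all, at 37301 peaks. Without Dox+ day 8 replicate 1 in the rule this share was 0.397%. MEF10 MN+FRG replicates 1 and 2 called 5.94% and 6.33%, against 35.8% and 36.1% of all regions. MEF10 MyoD+FRG replicate 2, which the rule left out of the merging and whose peaks had a most common width of 500 bp and reached 202465 bp, overlapped 11.0% of the MyoD-alone regions, against 36.6% of all regions and 83.1% of the shared ones. In each of these libraries the MyoD-alone regions were called less often than regions in general. The regions had been chosen for absence from other libraries given FRG, which lowers such shares. Absence from day 0 libraries lowers them too: MN+FRG libraries called 82.5% and 82.6% of the regions called in both day 0 libraries. In the 14741 Dox+ day 8 regions chosen without regard to the FRG day 8 lists, MN+FRG replicates called 14.4% and 14.6%, MyoD+FRG replicate 1 called 1.01% and replicate 2 overlapped 14.1%. Each of these shares was higher than that of the MyoD-alone regions and below that over all regions. The effect of excluding the Dox+FRG, day 0 and satellite cell lists was not separated in this way.

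The MEF10 MN+FRG lists, at 93086 and 93730 peaks, were close in length to the Dox+ day 4 lists, at 89871 and 97854 peaks. Their shares went the opposite way between the region sets, which exclude each other's lists. MN+FRG libraries called 18.5% and 19.1% of the FRG-only regions and 5.94% and 6.33% of the MyoD-alone regions. Dox+ day 4 libraries called less than 1% of the former and 37.7% and 42.6% of the latter. In the sets that do not exclude each other, MN+FRG libraries called 22.4% and 22.8% of the FRG day 8 regions and 14.4% and 14.6% of the Dox+ day 8 regions, a smaller contrast in the same direction.

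**Figure D3:**
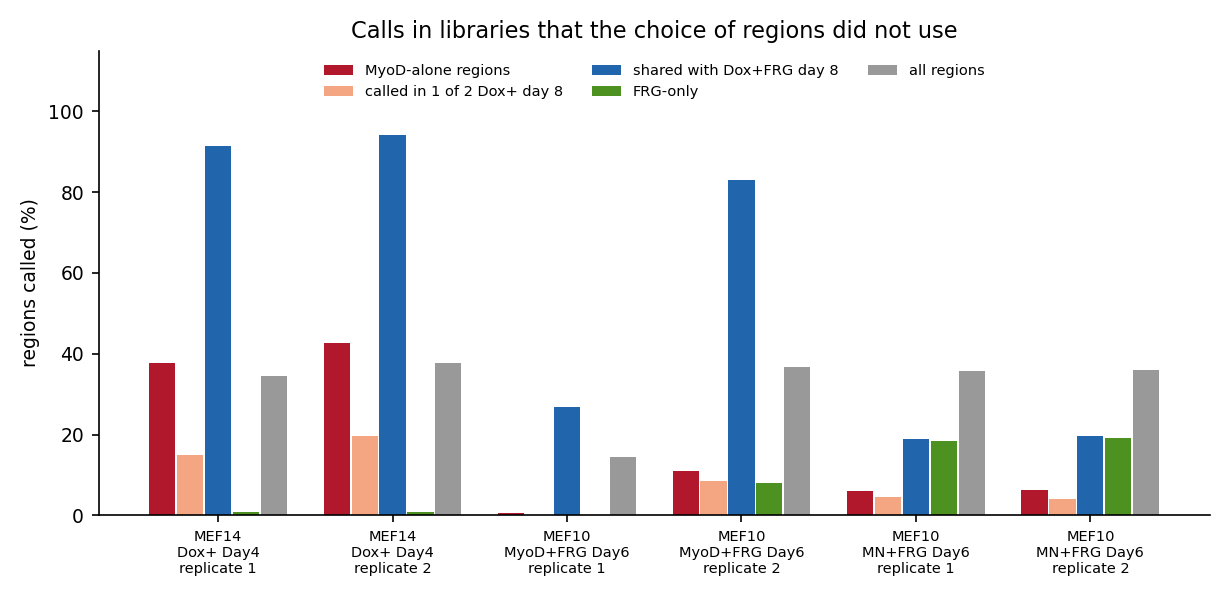
Share of regions called, in percent, in each library that the rule did not use, for MyoD-alone regions, regions called in 1 of 2 Dox+ day 8 libraries, shared MyoD regions, FRG-only regions and all regions. Bars are single libraries, and MyoD-alone regions stand at 37.7% and 42.6% in Dox+ day 4 cells and at 0.614% to 11.0% in the MEF10 libraries.

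The share of MyoD-alone regions called was 40.1% ± 3.46 in the 2 Dox+ day 4 libraries and 4.30% ± 3.20 (SD) in the 3 MEF10 libraries of the merged lists. The 3 MEF10 libraries come from 2 groups, MyoD+FRG at 0.614% and MN+FRG at 5.94% and 6.33%. Their SD therefore holds a difference between groups and is not a spread of replicates. The MN+FRG libraries alone gave 6.14% ± 0.275 (SD, n = 2). The difference of 35.8 percentage points was larger than each of these SDs, and every Dox+ day 4 library lay above every MEF10 library. A two-sided exact permutation test over the 10 splits of these libraries gave p = 0.100, the smallest it can give. The sides differ in line, day and FRG together, so the part of FRG cannot be told apart from the others. The regions were also chosen for calls at Dox+ day 8 and for absence from Dox+FRG and FRG day 8 libraries. That choice favours a difference in this direction, so its sign carries no weight of its own.

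None of these 5 libraries called 5629 of the MyoD-alone regions, 48.7%, against 41.9% of all regions. With MEF10 MyoD+FRG replicate 2 counted as well, 5394 had no call, 46.7% against 38.2% of all regions. Both Dox+ day 4 libraries and none of the 3 MEF10 libraries called 3213, 27.8%, against 8.49% of all regions. At least 1 of the 3 MEF10 libraries called 1023, 8.85% against 42.7% of all regions, and both MN+FRG libraries called 454, 3.93% against 30.6%. The exclusions of the rule bear on the MEF10 shares as above. Of the regions called in both Dox+ day 4 libraries, both MN+FRG libraries called 5.61%, against 2.30% of those called in neither day 4 library. MEF10 MyoD+FRG replicate 1 called 54 of the former, 1.47%, and 5 of the latter, 0.0840%. All 5 libraries called 7 of the MyoD-alone regions, 0.0606% against 11.1% of all regions, among them chr17:75032697-75033176, the widest of the 7 at 480 bp, named after its values were seen.

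MyoD-alone regions were narrow. The median width of the merged region was 121 bp, against 284 bp for shared MyoD regions and 354 bp for all regions called in both Dox+ day 8 libraries. Merged regions widen with the number of lists that call them, and MyoD-alone regions draw on few lists by choice. Within 1 list, a peak wider than the most common width of its list lay in 4.64% of MyoD-alone regions in Dox+ day 8 replicate 1 and in 7.58% in replicate 2. Among shared MyoD regions these shares were 12.5% and 15.5%, and among all regions of both Dox+ day 8 libraries 22.7% and 25.9%. FRG-only regions held such a peak in 18.3% and 18.4% in their own FRG lists. MyoD-alone regions had the lowest shares of these sets. The rule kept no region that touched an excluded peak, which a wide peak is likelier to do, so the choice itself lowers these shares.

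Peak centres are given as a description, since peaks of 1 region were joined by overlap, which limits how far apart narrow peaks can lie. The centres of the peaks in Dox+ day 8 replicates 1 and 2 lay a median of 21.0 bp apart over the 11556 regions. Between Dox+ day 4 replicates the median was 20.5 bp over the 3669 regions with a peak in both. Between days 4 and 8 it was 21.5 to 22.5 bp in the 4 pairs of libraries. The medians between days were thus up to 2 bp larger than those between replicates.

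The 348 MyoD-alone regions with a wide peak in both Dox+ day 8 libraries were somewhat more often called at day 4. Dox+ day 4 libraries called 44.0% and 51.1% of them, against 37.5% and 42.3% of the other 11208. In MEF10 MN+FRG the shares were 6.32% and 8.33%, against 5.93% and 6.27%. MEF10 MyoD+FRG replicate 2 overlapped 17.8% against 10.8%, and replicate 1 called 0.575% against 0.616%. The shares of the wide regions were thus higher in 5 of the 6 libraries, MEF10 MyoD+FRG replicate 1 being the exception. A call needs only 1 bp of overlap, so a wider region is likelier to be called in any library. Shares of wide and other regions outside this set are not given, and the part of width was not tested.

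The 10 widest MyoD-alone regions among those called in both Dox+ day 4 libraries were 1160 to 1670 bp long. The first was chrX:23194319-23195878, with peaks of 1543 and 1558 bp at Dox+ day 8 and of 702 and 670 bp at Dox+ day 4. It lay 11.9 kb from the nearest peak of any excluded library and 74.0 kb from the nearest region called in both day 0 libraries. The second, chr3:77901807-77903476, had peaks of 1045 and 1670 bp at day 8 and of 680 and 689 bp at day 4, and lay 20.1 kb from any excluded peak. At both regions the day 8 peaks were wider than the day 4 peaks in every library. The 10 were chosen for the summed width of their day 8 peaks, which favours this direction.

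Another 3 of the 10 were already wide at day 4 in both libraries. At chr13:70501952-70503265 the peaks were 1202 and 1305 bp wide at day 4 and 1163 and 1258 bp at day 8. This region lay 1463 bp from a region called in both day 0 libraries, and MN+FRG replicate 2 also called it. The peaks of chr18:60180651-60182030 measured 1103 and 987 bp at day 4 and 1059 and 1324 bp at day 8, and those of chr2:170560047-170561206 measured 959 and 985 bp at day 4 and 1151 and 1043 bp at day 8. The last of these was the only 1 of the 10 that MEF10 MyoD+FRG replicate 2 overlapped, and its nearest other MyoD-alone region lay 6972 bp away.

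At 4 of the 10, day 4 peaks had the most common width of their lists, 78 and 79 bp, and day 8 peaks were over 1000 bp wide in both libraries. These were chr10:104060018-104061188, chr4:68352969-68354165, chr8:120241140-120242303 and chr15:3962618-3963794. The first had day 8 peaks of 1148 and 1171 bp and stood 37.6 kb from any excluded peak, the farthest of the 10. MN+FRG replicate 2 also called the last. At chr2:125513019-125514214 the day 4 replicates disagreed, with peaks of 78 and 1129 bp, against 1154 and 1131 bp at day 8. Since day 8 width chose the 10 regions, widening from day 4 to day 8 cannot be read from them. None of the 10 was called in MEF10 MyoD+FRG replicate 1 or MN+FRG replicate 1.

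The 3 widest MyoD-alone regions that none of the 5 libraries called were not overlapped by MEF10 MyoD+FRG replicate 2 either. At chr6:97406376-97408198 the peaks were 1768 and 1823 bp wide, wider together than any of the 10 above, with an excluded peak 1216 bp away. At chr14:75579203-75580696 they were 1113 and 1482 bp wide, and the nearest excluded peak was 12.0 kb away. At chr1:80448604-80450852 the replicates disagreed, with peaks of 2249 and 335 bp. Wide peaks at day 8 were therefore found with and without a day 4 call.

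Most MyoD-alone regions were isolated from peaks of the excluded libraries by more than a near miss. The nearest excluded peak lay within 100 bp for 1.74% of them and within 1000 bp for 13.3%, and the median distance was 3136 bp. Dox+ day 4 calls did not follow this distance: its median was 3195 bp for regions called in both day 4 libraries and 3093 bp for those called in neither.

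In relation to chromatin open in fibroblasts, MyoD-alone regions lay where the other sets did. Their median distance to the nearest region called in both day 0 libraries was 11.2 kb (11226 bp), against 11807 bp for shared MyoD regions and 10999 bp for FRG-only regions. The nearest other MyoD-alone region lay a median of 49953 bp away, and within 10 kb for 16.0% of them. For FRG-only regions a MyoD-alone region lay within 10 kb for 11.1%, for shared MyoD regions for 13.7%, and for all regions called in both Dox+ day 8 libraries for 13.3%. FRG-only regions, a larger set, had another of their own kind within 10 kb for 34.6%. A shared MyoD region lay within 10 kb of 3.44% of MyoD-alone regions, and of 3.45% of all regions called in both Dox+ day 8 libraries. MyoD-alone regions were thus no nearer to shared MyoD regions than Dox+ day 8 regions in general.

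**Figure D4:**
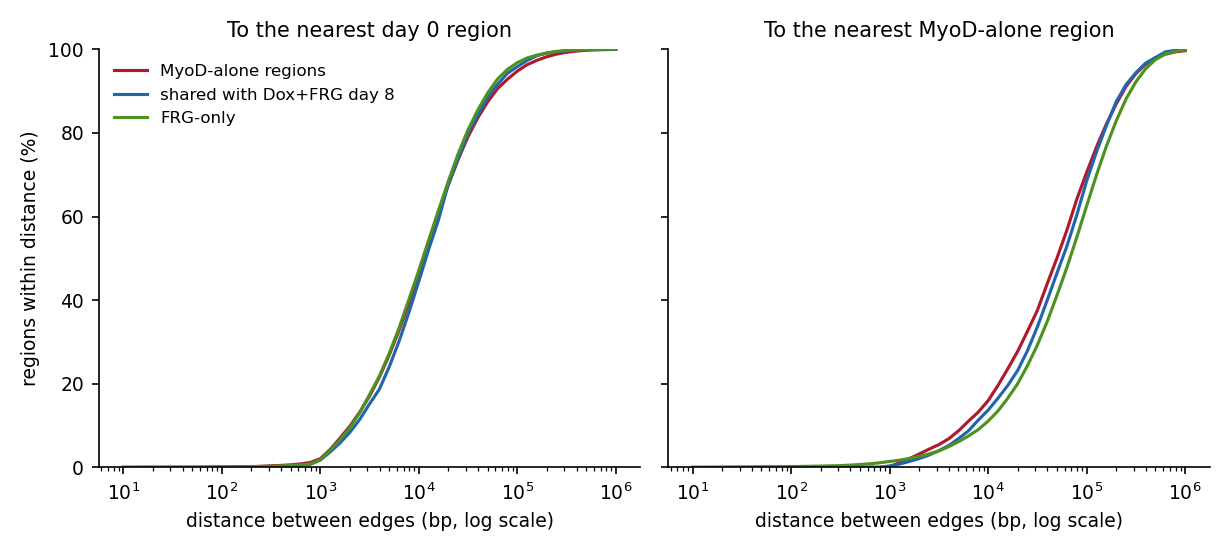
Cumulative share of regions, in percent, by distance to the nearest region called in both day 0 libraries (left) and to the nearest other MyoD-alone region (right), in bp on a log scale. The curves for the 3 sets nearly coincide on the left, with medians of 10999 to 11807 bp, and on the right MyoD-alone regions reach 16.0% within 10000 bp and FRG-only regions 11.1%.

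MyoD-alone regions were spread over all chromosomes in the lists. They made up 11.8% of the regions called in both Dox+ day 8 libraries, from 9.69% on chromosome 7 to 13.4% on chromosome 13 among autosomes, and 12.1% on chromosome X. Chromosome 2 held the most, 951, and chromosome X the fewest, 282. The share of them called in both Dox+ day 4 libraries ran from 29.6% on chromosome 4 to 35.2% on chromosome 9, and was 35.1% on chromosome X.

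In windows of 100 kb, 5792 MyoD-alone regions, 50.1%, were alone in their window, and 156 windows held 4 or more. The largest number was 7, reached in 2 windows. The window chr2:145600001-145700000 held 7 MyoD-alone regions of 88 to 169 bp among 26 regions in all. Dox+ day 8 libraries called 17 regions there in each replicate and Dox+ day 4 libraries 12 in each. Day 0 libraries called 7 and 8, Dox+FRG libraries 4 to 7, satellite cell libraries 3 to 5, and FRG day 8 libraries 13 and 14. Both Dox+ day 4 libraries called 4 of the 7 and neither called the other 3. The distance to the nearest excluded peak was 75 to 4185 bp for the 7, with 3 of them within 1000 bp.

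**Figure D5:**
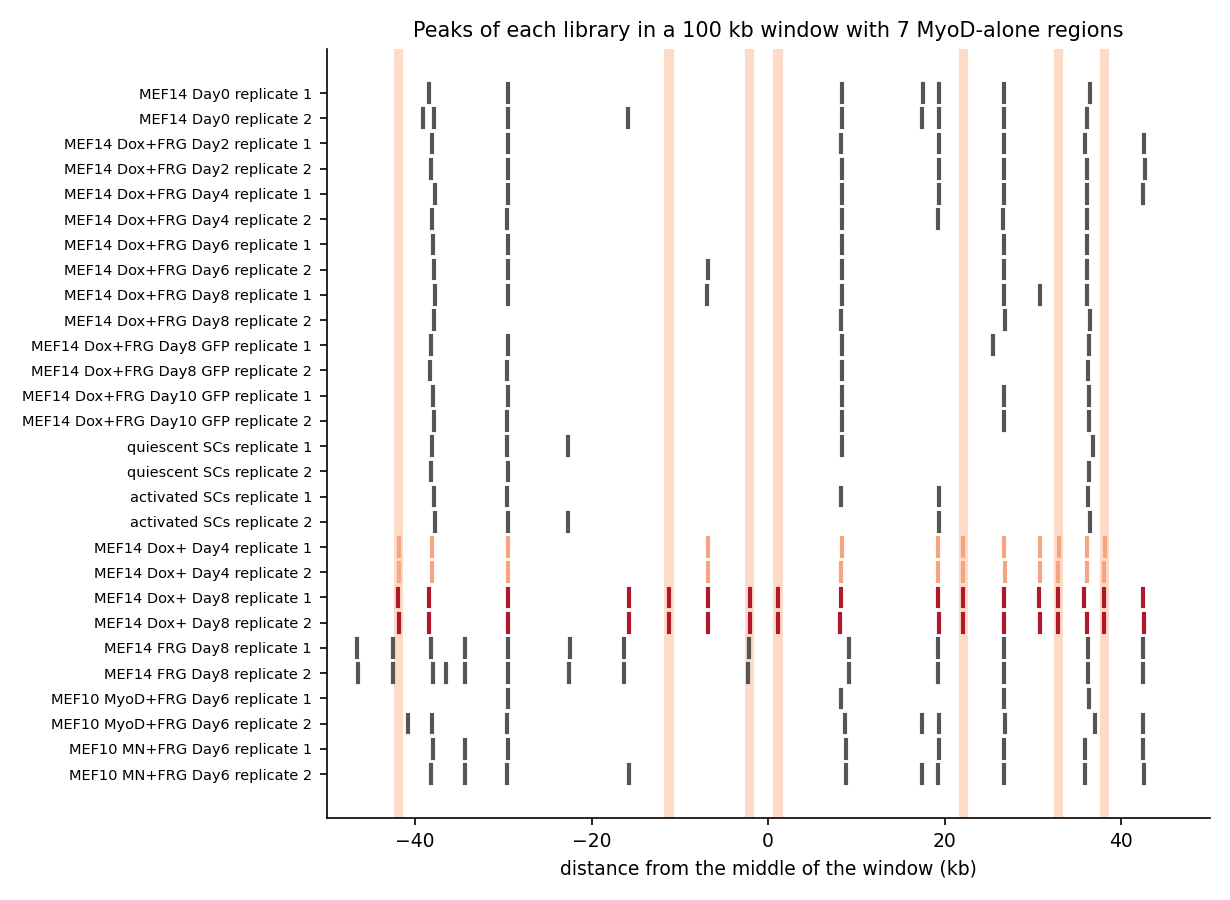
Peaks of the 28 libraries on chromosome 2 from 145600001 to 145700000 (mm9), each peak drawn as a bar of fixed thickness at its centre, against the distance from the middle of the window in kb. Shaded strips, drawn wider than the regions, mark the 7 MyoD-alone regions, of which 4 also carry peaks in both Dox+ day 4 libraries.

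The other window with 7, chr5:17300001-17400000, differed at day 4. All 7 of its MyoD-alone regions stood in 1 run, chr5:17341499-17369056, in which neighbours lay under 10 kb apart, the longest such run in the genome. Within these 27558 bp, both Dox+ day 8 libraries called 7 regions, no region was called in both day 0 libraries, and the day 4 libraries called 1 of the 7, in 1 library only. The widest of the 7 was 308 bp and the other 6 were 94 to 130 bp. A window on chromosome 6, chr6:129300001-129400000, had 6 MyoD-alone regions, of which 1 was called in both Dox+ day 4 libraries and none in MN+FRG. It was 1 of 6 windows with that number, taken by its position.

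The next runs named were of 4 regions each and showed opposite day 4 calls. How many runs of this length there were is not given, so these are examples only. In chr1:115815874-115830778 both Dox+ day 4 libraries called all 4, of 111 to 361 bp, and the run held no other region. Both MN+FRG libraries called 1 of these 4. In chr1:175339271-175360707 neither Dox+ day 4 library called any of the 4, of 100 to 143 bp. Calls at day 4 tended to be shared between neighbouring MyoD-alone regions. Over 982 pairs of neighbouring MyoD-alone regions under 10 kb apart, the second was called in at least 1 Dox+ day 4 library in 63.1% of pairs whose first was, and in 30.5% of pairs whose first was not. Over all MyoD-alone regions this share was 48.5%. Neighbouring regions share their libraries and are not independent, so this is a description with no test. The same shares for neighbouring pairs over all regions are not given, so whether this is particular to MyoD-alone regions is unknown.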

How the data were processed

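Open chromatin was measured by ATAC-seq in 28 libraries of 14 groups. Per the labels, 60000 cells entered each reaction and libraries were amplified over 13 PCR cycles. The deposited files are lists of peak positions, a chromosome, start and end for each peak and no other value. BWA, HOMER and the mm9 build are named in the submitters' processing notes. Tool versions, read filters, the threshold for a peak and any correction for the transposase offset: not given in the sources used here. Each library has its own list, so peaks were called per library as far as the lists show. Depth is unknown.

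Peaks of 27 lists were merged into regions at 1 bp of overlap with Python 3.11.15 and numpy 2.4.6, and the counting was tested on simulated lists. Starts are printed 1-based, on the reading that the lists are 0-based. Shares are given per library, over all regions beside the chosen ones, and libraries were compared by an exact permutation test. Named are, of the regions called in both Dox+ day 4 libraries, the 10 with the largest summed peak width at Dox+ day 8, of those called in none of the 5 merged libraries outside the rule, the 3 widest, and the 3 fullest 100 kb windows and longest runs. Motif and gene list analyses had been planned only if mm9 sequence or annotation was given, and were not run. The members and lists were chosen with earlier results of these data known. The alternatives were another overlap, other merging, wider peaks, autosomes, padding, and each library left out. A common peak width and the MEF10 library left out of the merging were added after the lists were seen.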

Additional observations from a re-analysis of the deposited data

How the results depend on the processing

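The number of MyoD-alone regions, 11556, was between 10673 and 11834 with a required overlap of 50% of the shorter peak, 28 lists merged, regions from Dox+ day 8 peaks only, autosomes only, excluded peaks padded by 100 bp or peaks widened to 205 bp (the last chosen after seeing the data). With wider Dox+ day 8 peaks only it was 348. Leaving out 1 library gave 11562 to 24164 regions, the highest without Dox+ day 8 replicate 1, since 1 library then stands for its group. The share called at Dox+ day 4, 40.1%, was 34.0% with the 50% overlap, 47.6% with wider peaks, and 28.5% to 41.6% with 1 library left out. In MEF10 MN+FRG, 6.14% became 6.52% with the 50% overlap, 7.33% with wider peaks, and 5.07% to 7.05% with 1 library left out. In MEF10 MyoD+FRG replicate 1, 0.614% became 0.397% to 0.736% with 1 library left out, and the lowest, without Dox+ day 8 replicate 1, was over 1.5 times lower. The difference between Dox+ day 4 and MEF10 libraries, 35.8 points, kept its direction in every alternative run, from 24.8 to 47.6 points. The choice of regions favours that direction in each run. The 47.6 points came with the share of FRG-only regions subtracted. With MEF10 MyoD+FRG replicate 2 as a further MEF10 library, added after seeing the data, the difference was 34.1 points (exact permutation p = 0.0667, the smallest it can give). Against MN+FRG only, with a replicate block, it was 34.0 points (exact sign-flip p = 0.5, the smallest it can give). Over all regions, deviations of same-numbered libraries of these groups correlated at 0.00045. Such a correlation of present or absent calls cannot show whether same-numbered libraries were prepared together. The lists hold no peak height, so weak and strong peaks cannot be told apart beyond their width.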
